A study of Xenopus laevis with 45 samples.

Results

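Adrenomedullin is a secreted peptide of the calcitonin family. The genes described here are those of the peptide, of its receptor and the partners of that receptor, and of a receptor once assigned to it. They are all gene copies in the count files whose symbol, without the copy suffix, is adm, calcrl, ramp1, ramp2, ramp3 or gpr182. The rule gave 11 of the 45038 gene identifiers. Xenopus laevis has a duplicated genome, and most genes have a long-chromosome copy (.L) and a short-chromosome copy (.S). The 11 are adm.L and adm.S on the ligand side and, on the receptor side, calcrl.L, both copies of ramp1, ramp2 and ramp3, and both copies of gpr182. An S copy of calcrl was not analysed here. The symbols were chosen by the counts of these same libraries: adm.L, adm.S, ramp2.L and gpr182.S had differed between erythroferrone-depleted and control embryos. The erythroferrone comparisons of all 11 are therefore given as descriptions, with no test, and the tests concern control injections, development and other genes.

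The receptor of adrenomedullin is built from separate proteins. CALCRL is a G-protein-coupled receptor that cannot bind the peptide well alone, and a single-pass partner of the RAMP family brings it to the cell surface and sets its ligand. With RAMP2 or RAMP3 it is an adrenomedullin receptor, and with RAMP1 it is the receptor of calcitonin gene-related peptide. Signalling runs mainly through cyclic AMP. In mice, loss of the ligand, of CALCRL or of RAMP2 gives embryos with oedema and defective blood and lymphatic vessels. GPR182 is an endothelial receptor once described as an adrenomedullin receptor and now known in mammals chiefly as a chemokine-scavenging one. Adrenomedullin itself is made by many cell types and is a known target of the hypoxia response.

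RNA was sequenced from whole embryos of Xenopus laevis to find genes that depend on erythroferrone (ERFE), a secreted hormone known from mammals as a regulator of iron handling. Embryos at the 8-cell stage received morpholinos, antisense oligonucleotides, in their 4 vegetal blastomeres, so the other blastomeres and their descendants were not injected. The 5 conditions were 10 ng ERFE MO1, 20 ng ERFE MO2, 10 ng or 20 ng of a standard control morpholino (cMO), and no injection. Each was sampled at stages 35/36, 37/38 and 41 with 3 libraries, which makes 15 groups and 45 libraries. The labels number the libraries of a group 1 to 3 without saying whether they come from separate clutches, so a p-value here reflects spread among these samples only, and that may be technical.

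The libraries held 19342567 to 41922031 counts each. Levels are given as CPM, a gene's counts per 1000000 counts of a library's scaled total, and 3 counts correspond to between 0.0709 and 0.155 CPM. CPM does not correct for gene length, so levels are compared between libraries and not between genes. A single library stands apart from its label. The library labelled ERFE MO2 stage 35/36 replicate 1 is closest to ERFE MO1 stage 37/38 replicate 2, with a chi-square per gene of 1.22 over 31834 genes, where the next closest of the 990 pairs of libraries has 3.78 and the closest pair within a group 10.2. Fold changes and counts for ERFE MO2 against 20 ng cMO at stage 35/36 are given with and without it, while orders and likenesses over group means include it. The targeted gene, listed as fam132b.L, had 27 to 346 counts and passed in none of the 6 ERFE comparisons with edgeR's quasi-likelihood test and Benjamini-Hochberg adjustment over 31817 genes (adjusted p 0.526 to 1). Its level is no check on a morpholino that acts on translation, and the labels do not say how these act.

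Both ligand copies were higher in ERFE-depleted embryos at stage 41, with either morpholino. For adm.L, the 3 libraries of 10 ng cMO had 3.35, 3.4 and 3.14 CPM and those of ERFE MO1 had 5.44, 7.46 and 8.47 CPM. The values were 2.7, 3.21 and 3.89 CPM for 20 ng cMO and 4.38, 8.04 and 7.44 CPM for ERFE MO2. The uninjected libraries had 2.73, 3.65 and 3.49 CPM. All 6 ERFE libraries lay above all 9 control and uninjected libraries of that stage, whose highest value was 3.89 CPM, and replicate 1 was the lowest in both ERFE groups. The share of all genes with 6 libraries above these 9 was not counted, and adm.L was among the copies by which the symbols were chosen. The log2 fold change was 1.11 ± 0.26 (SE, n = 3 against 3; 2.16-fold) with MO1 and 1.02 ± 0.27 (2.03-fold) with MO2.

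The S copy was likewise higher in both ERFE groups at stage 41, with a wider spread. For adm.S, 10 ng cMO gave 2.58, 2.02 and 1.55 CPM, and ERFE MO1 gave 4.73, 5.68 and 4.53 CPM. In embryos with 20 ng cMO it was at 2.31, 2.82 and 2.29 CPM, and in those with ERFE MO2 at 3.78, 10.9 and 6.38 CPM. Uninjected embryos had 2.77, 1.77 and 2.74 CPM. Again no ERFE library fell within the range of the 9 others, and ERFE MO2 replicate 2 was the highest of all 45 libraries for this gene. This copy, too, was among those that chose the symbols, and the share of all genes so placed was not counted. The log2 fold change was 1.27 ± 0.34 (2.42-fold) with MO1 and 1.51 ± 0.34 (2.84-fold) with MO2. Without ERFE MO2 replicate 2 the MO2 value was 1.04.

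**Figure D1:**
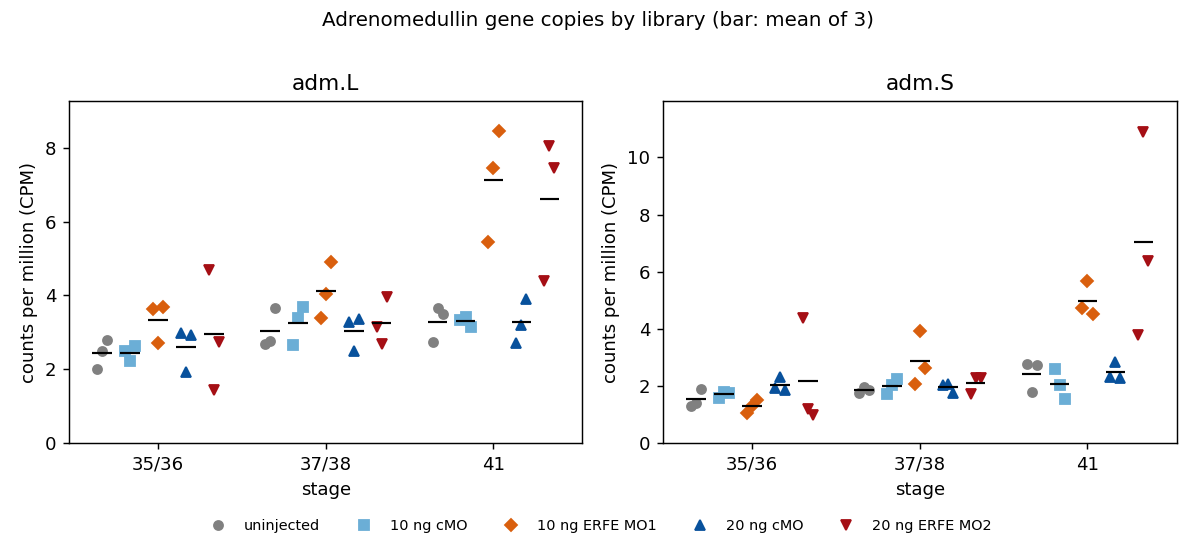
CPM of adm.L and adm.S in each library, by stage and condition; each point is a library and the bar is the mean of 3. At stage 41 the 6 ERFE morpholino libraries sit between 4.38 and 8.47 CPM for adm.L and between 3.78 and 10.9 CPM for adm.S, above the 9 control and uninjected libraries, while at the earlier stages the groups lie closer together. Both copies were among those that chose the symbols, and the share of all genes so placed was not counted.

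At the 2 earlier stages the ligand copies differed less from their controls, and not always in the same direction. At stage 35/36 adm.L had 3.62, 2.71 and 3.67 CPM with ERFE MO1 and 2.5, 2.22 and 2.62 CPM with 10 ng cMO, 3 higher libraries without overlap (5.45% of all genes were so) and a log2 fold change of 0.45 ± 0.27. The S copy went the other way there, with 1.04, 1.29 and 1.5 CPM against 1.58, 1.77 and 1.74 CPM, 3 lower libraries without overlap (6.25% of all genes were so) and a log2 fold change of -0.41 ± 0.36. At stage 37/38 adm.L had 3.38, 4.04 and 4.91 CPM with ERFE MO1 and 2.66, 3.38 and 3.69 CPM with 10 ng cMO, and adm.S had 2.08, 3.92 and 2.62 CPM against 1.71, 2.02 and 2.25 CPM. Both pairs of groups overlapped, and the log2 fold changes were 0.34 ± 0.27 and 0.53 ± 0.35. With ERFE MO2 at that stage they were 0.1 ± 0.27 for adm.L and 0.11 ± 0.35 for adm.S, within the spread of the libraries.

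For ERFE MO2 at stage 35/36 the ligand values rest on the library that stands apart. It had 4.70 CPM of adm.L and 4.37 CPM of adm.S, where the other two libraries of its group had 1.45 and 2.73 CPM of adm.L and 1.19 and 0.984 CPM of adm.S. The library it is closest to, ERFE MO1 stage 37/38 replicate 2, had 4.04 and 3.92 CPM. With it the log2 fold changes were 0.2 ± 0.27 for adm.L and 0.14 ± 0.35 for adm.S. Without it they were -0.3 ± 0.26 and -0.91 ± 0.32, so the direction of both copies turns on this library, and adm.S then lay below 20 ng cMO without overlap.

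Over the 15 group means, adm.L was highest in ERFE MO1 stage 41 (7.12 CPM), then ERFE MO2 stage 41 (6.62), ERFE MO1 stage 37/38 (4.11) and ERFE MO1 stage 35/36 (3.33). Of the 14 neighbouring pairs in this order, 2 were further apart than the larger of their SDs, namely the step from ERFE MO2 stage 41 down to ERFE MO1 stage 37/38 and the step below that. For adm.S the order began with ERFE MO2 stage 41 (7.02), ERFE MO1 stage 41 (4.98) and ERFE MO1 stage 37/38 (2.87), and the step between the last 2 of these exceeded the SDs. The S copy made up 34.8% to 46.6% of the summed adm CPM in the ERFE MO1 libraries of stage 41 and 46.2% to 57.6% in those of ERFE MO2, against 33.1% to 43.5% and 37.0% to 46.8% in their control morpholino groups. Copies that resemble each other can share reads, so a split between L and S is uncertain.

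The receptor itself, calcrl.L, had lower values with ERFE MO1 at all 3 stages. The stage 41 ERFE MO1 libraries had 9.75, 8.97 and 9.85 CPM and the 10 ng cMO libraries 13.6, 14 and 12.6 CPM, without overlap. The log2 fold change was -0.49 ± 0.12, with -0.36 ± 0.12 at stage 35/36 and -0.34 ± 0.12 at stage 37/38, also without overlap. With ERFE MO2 at stage 41 the libraries had 10.9, 13.4 and 10.3 CPM against 13.2, 12.2 and 10.7 CPM with 20 ng cMO, and the groups overlapped. The MO2 log2 fold changes were -0.02 ± 0.12, -0.15 ± 0.12 and -0.06 ± 0.12 at the 3 stages. At stage 41 the MO1 value minus the MO2 value was -0.43 ± 0.17 (SE). The 2 values have different control groups, with means of 13.4 CPM for 10 ng cMO and 12 CPM for 20 ng cMO. The stage 41 means were 9.52 CPM with ERFE MO1, 11.5 with ERFE MO2 and 14.5 in uninjected embryos. In RNA of whole embryos, fewer cells of a type and less RNA per cell cannot be told apart.

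The RAMP2 partner, whose loss in mice resembles loss of the ligand, was among the lower copies in both morpholinos. At stage 35/36 ramp2.L had 1.22 to 1.49 CPM with ERFE MO1 and 1.8 to 1.92 CPM with 10 ng cMO. With ERFE MO2 it had 1.19 to 1.555 CPM, and with 20 ng cMO 1.566 to 2.6 CPM. Both were lower without overlap, as were 6.25% and 4.57% of all genes. At stage 37/38, ramp2.L had 0.866, 0.968 and 0.883 CPM with ERFE MO1 and 1.56, 1.73 and 2.02 CPM with 10 ng cMO, a log2 fold change of -0.96 ± 0.22 and the lowest mean of its 15 groups. With 20 ng cMO that stage gave 1.42, 1.16 and 1.78 CPM and ERFE MO2 gave 1.2, 1.25 and 1.64 CPM, which overlapped, with -0.09 ± 0.22. The MO1 value minus the MO2 value was -0.87 ± 0.31. The order at stage 41 was the opposite: the ERFE MO2 groups of ramp2.L, 1.07, 1.14 and 1.06 CPM against 1.32, 1.88 and 1.49 CPM, did not overlap, and those of MO1, 1.3, 1.4 and 1.38 CPM against 2.07, 1.44 and 1.35 CPM, did. The log2 fold changes there were -0.51 ± 0.22 and -0.25 ± 0.22.

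The S copy of ramp2 had negative log2 fold changes in all 6 comparisons, -0.57 ± 0.28, -0.87 ± 0.28 and -0.67 ± 0.27 with MO1 and -0.66 ± 0.29, -0.45 ± 0.28 and -0.76 ± 0.27 with MO2. Its ERFE MO1 libraries of stage 41 had 1.41, 1.63 and 2 CPM against 2.22, 3.03 and 2.79 CPM, and its ERFE MO2 libraries 1.64, 1.29 and 1.89 CPM against 2.34, 2.41 and 3.43 CPM. Both stage 41 comparisons were without overlap. It also held the lowest count of all 11 copies, 9 in 1 library.

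The scavenging receptor gpr182 lay below its controls without overlap in more comparisons than any other symbol of the set. Its S copy was among those by which the symbols were chosen, so this is a description. For gpr182.S every ERFE library was below every library of its control in each of the 6 comparisons. Of all genes, 4.57% to 7.73% lay so in a single comparison. At stage 35/36 the gpr182.S means were 3.71 CPM with ERFE MO1, 4.48 with 10 ng cMO and 3.67 in uninjected embryos. At that stage ERFE MO2 had 2.27 to 3.05 CPM, which overlapped the 2.99 to 4.2 CPM of the uninjected libraries. The values at stage 41 were 3.33, 2.99 and 3.44 CPM with ERFE MO1 and 4.9, 4.9 and 4.46 CPM with 10 ng cMO. With ERFE MO2 they were 2.87, 2.26 and 2.66 CPM, against 5.01, 4.95 and 4.06 CPM with 20 ng cMO. At stage 37/38 ERFE MO2 had 2.19, 2.65 and 3.18 CPM and 20 ng cMO 4.28, 4.21 and 4.82 CPM. The log2 fold changes from stage 35/36 to 41 were -0.27 ± 0.17, -0.55 ± 0.17 and -0.55 ± 0.17 with MO1 and -0.6 ± 0.17, -0.73 ± 0.17 and -0.85 ± 0.17 with MO2.

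The L copy, gpr182.L, had 1.35, 1.44 and 1.71 CPM with ERFE MO1 at stage 41 and 3.24, 2.48 and 3.17 CPM with 10 ng cMO. Its ERFE MO2 libraries had 2.36, 1.26 and 1.86 CPM, with replicate 1 inside the control range of 3.12, 2.27 and 2.83 CPM. The log2 fold changes were -0.79 ± 0.26, -0.96 ± 0.26 and -0.98 ± 0.26 with MO1, without overlap at each stage, and -0.67 ± 0.26, -0.91 ± 0.26 and -0.58 ± 0.26 with MO2, without overlap at stage 37/38.

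**Figure D2:**
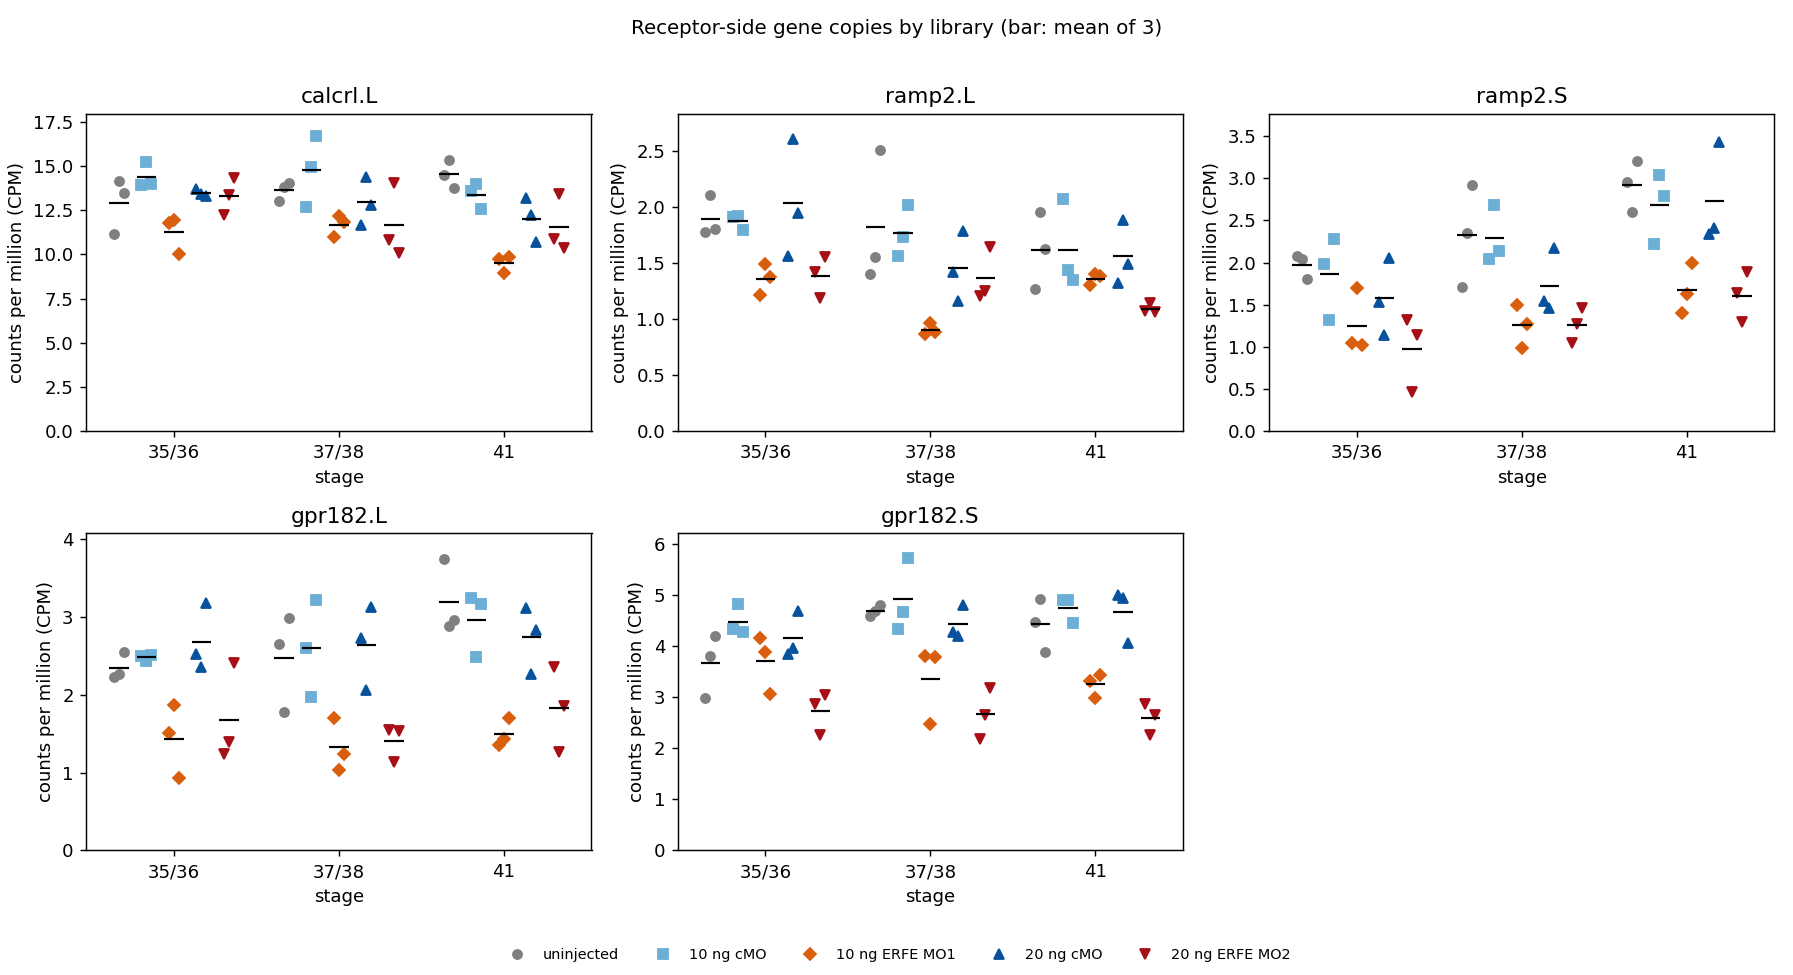
CPM of calcrl.L, ramp2.L, ramp2.S, gpr182.L and gpr182.S in each library, by stage and condition; points are libraries and bars are means of 3. The ERFE morpholino points of gpr182.S lie below their control morpholino points in all 6 comparisons, while those of calcrl.L do so with MO1 and overlap with MO2.

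RAMP1 and RAMP3 completed the receptor side. For ramp1 the log2 fold changes lay between -0.58 ± 0.25 (ramp1.S, MO1, stage 37/38) and 0.01 ± 0.24 (ramp1.L, MO1, stage 35/36). Of its 12 comparisons 1 was without overlap, that of ramp1.S with 4.27, 4.23 and 3.79 CPM in ERFE MO1 against 4.78, 6.09 and 7.56 CPM at stage 37/38. For ramp3.L all 6 values were negative, from -0.47 ± 0.19 at stage 41 with MO2 to -0.05 ± 0.19 at stage 37/38 with MO2. At stage 41 its ERFE MO2 libraries had 2.36, 2.29 and 2.92 CPM against 2.96, 3.17 and 4.35 CPM. The S copy differed from the others: ramp3.S had positive values in 5 of 6 comparisons, and at stage 41 its ERFE MO2 libraries, 1.51, 1.66 and 1.57 CPM, lay above those of 20 ng cMO, 1.22, 1.46 and 1.49 CPM. That difference was small (0.19 ± 0.31). With ERFE MO2 at stage 35/36, leaving out the library that stands apart gave -0.07 ± 0.26 for ramp1.L, -0.18 ± 0.28 for ramp1.S, -0.34 ± 0.22 for ramp3.L and 0.63 ± 0.38 for ramp3.S.

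Set side by side, the estimates of ligand and receptor-side copies lay on opposite sides of 0 at stage 41, except ramp3.S with MO2. Of the negative values, those of ramp1.S (-0.01) and ramp3.S (-0.05) with MO1 and calcrl.L (-0.06) with MO2 were near 0. Each of them turned positive in some alternative fits. With MO1, both ligand copies were higher, and all 9 receptor-side copies had negative log2 fold changes with a median of -0.35; with MO2, both ligand copies were higher, and 8 of 9 receptor-side copies were negative with a median of -0.47. The median over all genes was -0.003 and -0.01. At stage 37/38 the receptor side was negative in 8 of 9 copies with MO1 (median -0.55) and 8 of 9 with MO2 (median -0.15). At stage 35/36 it was negative in 7 of 9 (median -0.31) and 8 of 9 (median -0.41). Without the library that stands apart the last count was 7 of 9 (median -0.34), since calcrl.L then had 0.04 ± 0.14, while gpr182.S had -0.64 ± 0.2, gpr182.L -0.48 ± 0.29, ramp2.L -0.56 ± 0.25 and ramp2.S -0.93 ± 0.33. The 9 copies come from 5 genes and the same libraries, so they are not independent.

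Receptor-side copies whose ERFE libraries all lay below the control libraries numbered 4, 7 and 4 of 9 with MO1 at stages 35/36, 37/38 and 41, and 2, 2 and 4 of 9 with MO2. The 2 with MO2 at stage 35/36, ramp2.L and gpr182.S, lay below also without the library that stands apart. Over all genes tested that share of genes below was 6.25%, 7.73% and 5.06% with MO1, and 4.57%, 6.97% and 5.05% with MO2. Both ligand copies lay above without overlap at stage 41, where 6.44% of all genes did so with MO1 and 5.63% with MO2. These comparisons chose the symbols, so the shares are given for scale alone.

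Leaving out each library in turn gave 0.95 to 1.24 for adm.L (MO1, stage 41) and 1.04 to 1.79 for adm.S (MO2, stage 41). The groups did not overlap in either comparison, so leaving out a library could not change these signs.

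**Figure D3:**
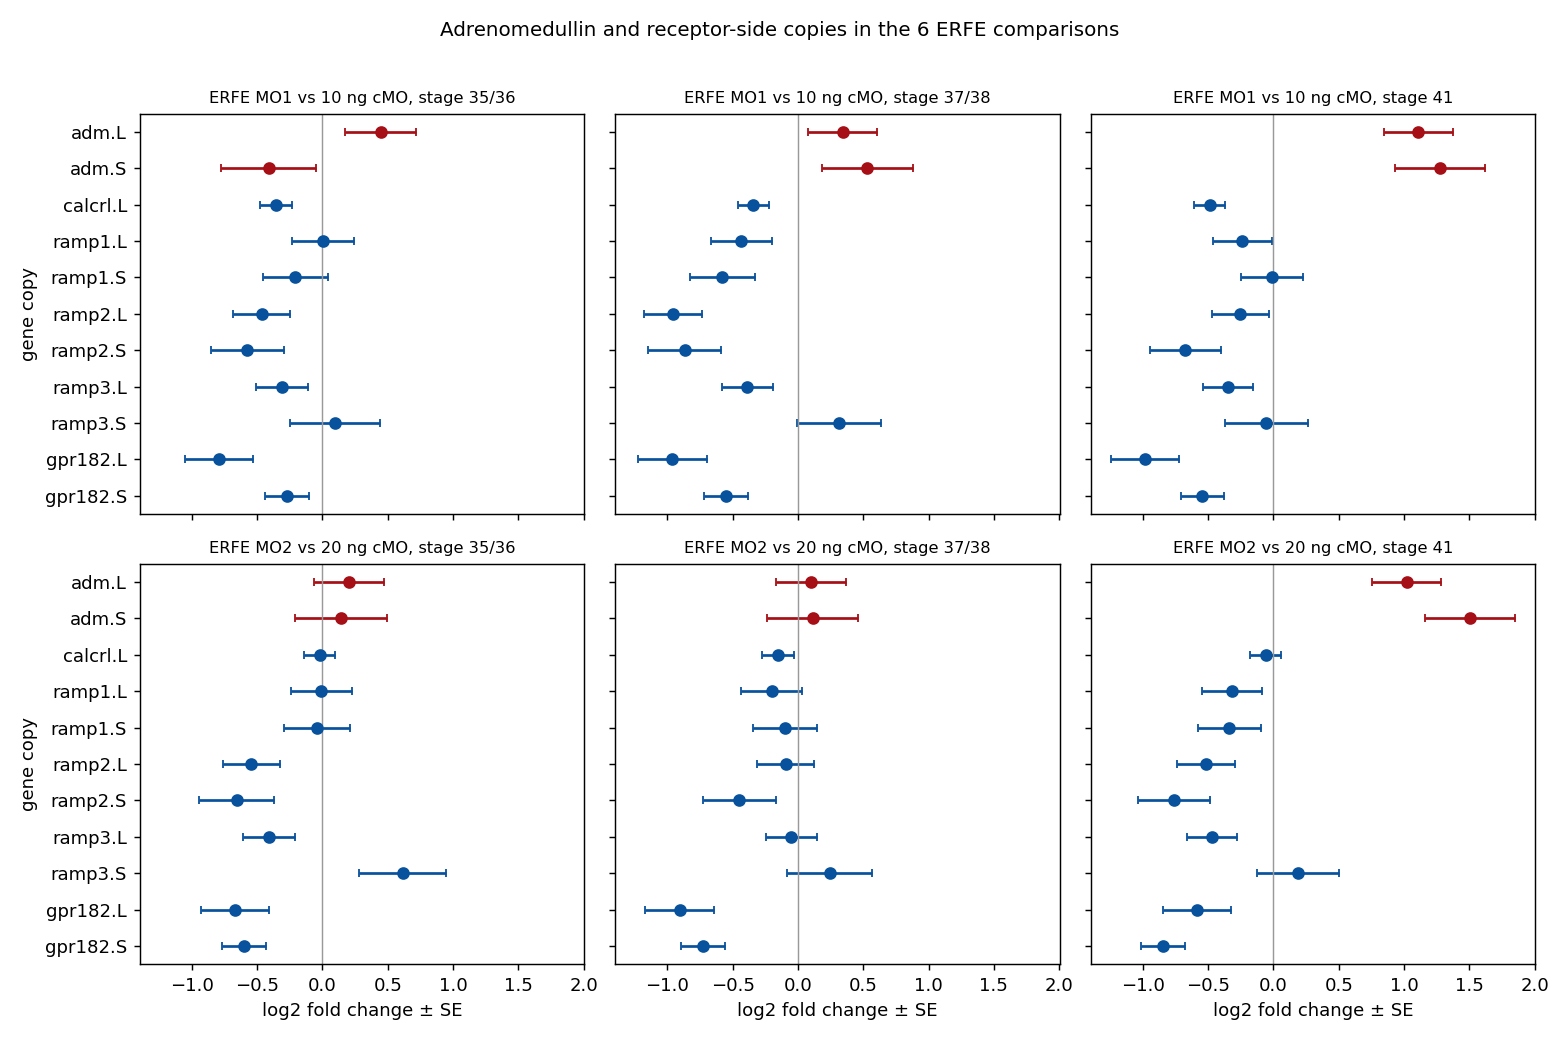
Log2 fold changes with SE bars of the 11 copies in the 6 ERFE comparisons, each panel a morpholino and stage against the same amount of control morpholino; ligand copies are red and receptor-side copies blue. The ligand points lie right of 0 at stage 41 in both rows and the receptor-side points mostly left of it.

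The ratio of ligand to receptor-side CPM, a ratio of counts without length correction, restates the contrast per library. Copies in it were among those by which the symbols were chosen, so groups that lie apart here are a description and no test. With MO2 at stage 41 calcrl.L was near its control (log2 fold change -0.06), so the ratio to calcrl.L there mostly restates the ligand. The summed adm CPM divided by calcrl.L CPM was 1.04 to 1.46 in the ERFE MO1 libraries of stage 41 and 0.751 to 1.41 in those of ERFE MO2. It was 0.374 to 0.437 with 10 ng cMO, 0.381 to 0.578 with 20 ng cMO and 0.354 to 0.454 in uninjected embryos. Divided by summed gpr182, it was 2.17 to 2.97 and 1.56 to 5.38 in the ERFE groups, against 0.615 to 0.734, 0.617 to 0.896 and 0.668 to 0.909. At stage 37/38 the same ratio was 0.99 to 2.26 with ERFE MO1 and 1.31 to 1.32 with ERFE MO2, against 0.63 to 0.812 and 0.644 to 0.757 with cMO. The ERFE groups named so far did not overlap their cMO groups. The ratio to calcrl.L at stage 37/38 was 0.496 to 0.656 with ERFE MO1 against 0.344 to 0.361, and 0.353 to 0.62 with ERFE MO2 against 0.316 to 0.456, an overlap. At stage 35/36 ERFE MO1 lay above its control in both ratios, with 0.334 to 0.518 against 0.262 to 0.312 for calcrl.L and 0.694 to 1.3 against 0.55 to 0.643 for gpr182. ERFE MO2 overlapped its control there in both, with 0.198 to 0.743 against 0.317 to 0.359 and 0.68 to 2.2 against 0.607 to 0.768. Leaving out the library that stands apart, the ERFE MO2 ratios were 0.198 to 0.259 for calcrl.L, below the control, and 0.68 to 0.718 for gpr182, within it.

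The ERFE libraries can also be set against uninjected embryos, a comparison that shares those libraries with the ones above. The log2 fold change of adm.L at stage 41 was 1.11 ± 0.27 with MO1 and 1.0 ± 0.27 with MO2. For adm.S it was 1.04 ± 0.34 and 1.54 ± 0.34. For calcrl.L it was -0.61 ± 0.12 and -0.33 ± 0.12, and for gpr182.S -0.45 ± 0.17 and -0.77 ± 0.17. At stage 37/38 the values with MO1 and MO2 were 0.43 ± 0.27 and 0.1 ± 0.27 for adm.L, 0.63 ± 0.35 and 0.18 ± 0.35 for adm.S, -0.23 ± 0.12 and -0.23 ± 0.12 for calcrl.L and -0.49 ± 0.17 and -0.81 ± 0.17 for gpr182.S. At stage 35/36 gpr182.S with MO1 was level with the uninjected embryos and overlapped them (0.01 ± 0.17), where 10 ng cMO lay 0.29 above uninjected. The other values with MO1 at that stage, 0.45 ± 0.27 for adm.L, -0.27 ± 0.37 for adm.S and -0.2 ± 0.12 for calcrl.L, were all with overlap. With MO2 at stage 35/36 gpr182.S had a mean of 2.73 CPM against 3.67 CPM in uninjected embryos. These groups overlapped, with or without the library that stands apart.

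Control injection was tested as such, since the choice of genes did not use that contrast. The contrast shares its cMO libraries with the ERFE comparisons, so it is not independent of that choice. None of the 11 copies passed in any of the 6 comparisons of cMO with uninjected embryos (edgeR, adjusted p 1 for the smallest), and DESeq2 called none. Of all genes, 0.00629% passed in each comparison with 10 ng and 0.0157%, 0.0126% and 0.0126% with 20 ng at the 3 stages. A single copy had an unadjusted p under 0.05, calcrl.L with 20 ng at stage 41 (log2 fold change -0.27 ± 0.12, 95% interval -0.52 to -0.03). The estimate farthest from 0 was that of ramp3.S with 10 ng at stage 35/36 (-0.68 ± 0.34, 95% interval -1.36 to 0.00478), and the ligand copies lay between -0.23 and 0.40 over the 6 comparisons.

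Development was tested in the uninjected embryos, where both ramp1 copies and ramp3.L rose. Stage 35/36 libraries had 10.3, 11.7 and 10.1 CPM of ramp1.L, those of stage 37/38 had 14.2, 16.3 and 20.9 CPM, and those of stage 41 reached 24.9, 29.1 and 36.6 CPM. The 3 stages did not overlap, and from stage 35/36 to 41 it rose by a log2 fold change of 1.5 ± 0.24 (edgeR, adjusted p = 6.77e-06). The S copy, ramp1.S, began at 5.33, 5.52 and 4.23 CPM, was next at 4.59, 5.9 and 6.4 CPM and ended at 10.1, 14.2 and 15.5 CPM. It rose by 1.4 ± 0.25 over the whole interval (adjusted p = 3.23e-05), and by 1.24 ± 0.25 from stage 37/38 to 41 (adjusted p = 0.000421), where ramp1.L rose by 0.82 ± 0.23 (adjusted p = 0.00809). The third to pass was ramp3.L, from 1.89, 2.1 and 2.26 CPM at stage 35/36 to 3.03, 3.28 and 3.61 CPM at stage 41 (0.66 ± 0.2, adjusted p = 0.00618).

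These 3 of 11 stand against 43.1% of all genes that passed between stages 35/36 and 41, and 2 of 11 against 30.1% between stages 37/38 and 41. Between stages 35/36 and 37/38 none of the 11 passed with edgeR, with 3 at an unadjusted p under 0.05, none called by DESeq2 and 0.0723% of all genes. With the replicate block ramp1.L also passed there (0.66, adjusted p = 0.00231, 5.44% of all genes), and ramp2.S between stages 35/36 and 41 (0.56, adjusted p = 0.0461, 57.7% of all genes). The block was set within each stage, so it pairs no libraries across stages. In a comparison of stages it only takes the deviations shared by same-numbered libraries out of the error. Its added calls are therefore no support for a change in development. Between stages 37/38 and 41 the block left 2 of 11, with 47.7% of all genes. The call of ramp1.L in that interval was lost without uninjected stage 37/38 replicate 1 (0.69, adjusted p = 0.0521) or stage 41 replicate 3 (0.64, adjusted p = 0.0577). The ligand copies did not pass from stage 35/36 to 41, with 0.43 ± 0.27 for adm.L (adjusted p = 0.201, 95% interval -0.12 to 0.99) and 0.66 ± 0.36 for adm.S (adjusted p = 0.136, 95% interval -0.07 to 1.38). Without the library that stands apart, which enters this fit through the shared spread and the genes kept, adm.S passed (0.65, adjusted p = 0.0452).

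**Figure D4:**
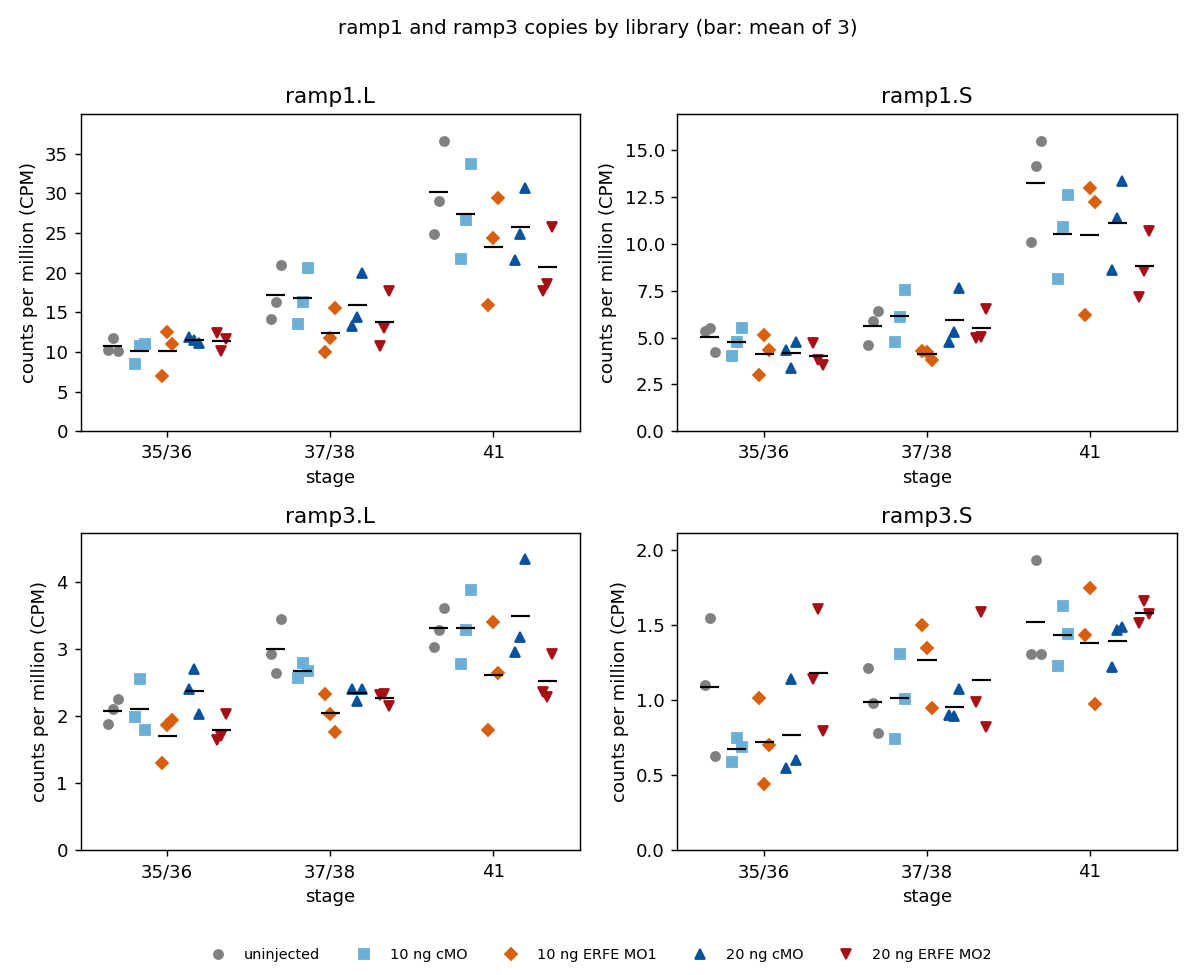
CPM of the ramp1 and ramp3 copies in each library, by stage and condition; points are libraries and bars are means of 3. Both ramp1 copies are higher at stage 41 than at stage 35/36 in the uninjected embryos, from 10.1 to 11.7 up to 24.9 to 36.6 CPM for ramp1.L, and ERFE and control groups overlap in most comparisons.

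Other genes were tested in the ERFE comparisons in edgeR's quasi-likelihood fit, with a gene passing at an adjusted p under 0.05. Of all genes, 0.39%, 0.6% and 1.51% passed with MO1 at the 3 stages and 0.0189%, 0.0974% and 0.412% with MO2. With the replicate number as a block, since libraries of the same number deviated together, 2.5%, 3.64% and 13.4% passed with MO1 and 0.563%, 1.62% and 5.8% with MO2. Without the library that stands apart, which enters every comparison through the shared spread, the shares were 0.498%, 0.803% and 1.65% and 0.0623%, 0.143% and 0.598%. The genes named below as passing under the block or without that library alone were named after their values were seen. The lists below were chosen with earlier results of these data known. Shares of a list beside those of all genes are therefore given for scale and are no test of the list.

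Relatives of adrenomedullin and proteins that process or clear it were read as a group of 13 tested copies, among them adm2 (the related peptide intermedin), calca (calcitonin and its gene-related peptide), calcr (the calcitonin receptor), pam (the enzyme that amidates such peptides), ece1 (a protease) and ackr3 (a receptor that scavenges adrenomedullin). None passed in any of the 6 ERFE comparisons with edgeR, and at an unadjusted p under 0.05 there were 1 with MO1 and 2 with MO2, at stage 41. With the replicate block adm2.S passed as lower with MO1 and crcp.S as higher with MO2, both at stage 41, 1 of 13 (7.69%) each against 13.4% and 5.8% of all genes. The largest values at stage 41 were those of adm2.S, -1.14 ± 0.41 with MO1 (adjusted p = 0.192) and -1.09 ± 0.42 with MO2 (adjusted p = 0.342). That copy had the lowest mean of the 13, 0.419 CPM. Its L copy, adm2.L, with a mean of 1.81 CPM, had 0.02 ± 0.34 and -0.28 ± 0.35. The scavenger ackr3.L had 0.08 ± 0.09 and 0.11 ± 0.09. Of 26 copies of cyclic AMP signalling genes, 1 rose, crem.S, a cyclic AMP response modulator, with MO1 at stage 41 (0.72 ± 0.18, adjusted p = 0.0375), a share of 3.85% against 1.51% of all genes. With the block both crem copies passed, 7.69% against 13.4% of all genes. None passed in the other 5 comparisons, where 0 to 4 had an unadjusted p under 0.05, and the medians of that group were between -0.03 and 0.04 in the 6 comparisons.

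Markers of endothelial and lymphatic cells, in which calcrl, ramp2 and gpr182 are best known, mostly had negative values in the ERFE groups. Of 47 copies, 37, 41 and 39 had negative log2 fold changes with MO1 at the 3 stages and 41, 45 and 36 with MO2, with medians of -0.29, -0.33, -0.33, -0.24, -0.33 and -0.20 (-0.19 for the fourth without the library that stands apart) against all-gene medians of -0.01 to 0.002. Those that passed were plvap.L (a protein of vessel fenestrae; -1.28 ± 0.21, adjusted p = 0.000689), tek.S (the angiopoietin receptor; -0.89 ± 0.18, adjusted p = 0.0056) and tie1.S (its co-receptor; -0.59 ± 0.16, adjusted p = 0.0439), which fell with MO1 at stage 41. In the same comparison cldn5.L, a tight junction protein, rose (1.16 ± 0.27, adjusted p = 0.0214). With MO2 at stage 41 tie1.S fell (-0.66 ± 0.16, adjusted p = 0.0453). None passed at the earlier stages, where 12 and 16 had an unadjusted p under 0.05 with MO1 and 9 and 17 with MO2. With the replicate block, 9, 12 and 17 copies passed as lower with MO1 (1.09%, 1.73% and 7.95% of all genes) and 4, 10 and 6 with MO2 (0.352%, 0.99% and 3.34%), and 1 passed as higher in each comparison with MO1 and with MO2 at stage 41. Without the library that stands apart 5 were lower with MO1 and 2 with MO2 at stage 41, pecam1.S was lower with MO1 and tie1.S with MO2 at stage 37/38, and cldn5.L was higher with MO1 at stage 37/38 and with MO2 at stage 41.

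The summed CPM of the 47 markers was 586.5 to 617.6 with ERFE MO1 and 662.7 to 706.1 with 10 ng cMO at stage 35/36, and 550.4 to 591 against 645.5 to 676.9 at stage 37/38. With ERFE MO2 it was 546 to 619 (the same range without the library that stands apart, which had 556.2) against 654.7 to 729.5, and 515.8 to 567.1 against 636.7 to 705.1. At stage 41 the ranges overlapped, 440.0 to 564.4 against 515.1 to 608.2 with MO1 and 506.6 to 524.3 against 517.3 to 596 with MO2. No copy on the list was at 0 in all libraries of a group. The summed level was thus lower without overlap at the 2 earlier stages, and the part of the markers in the receptor-side values was not tested.

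**Figure D5:**
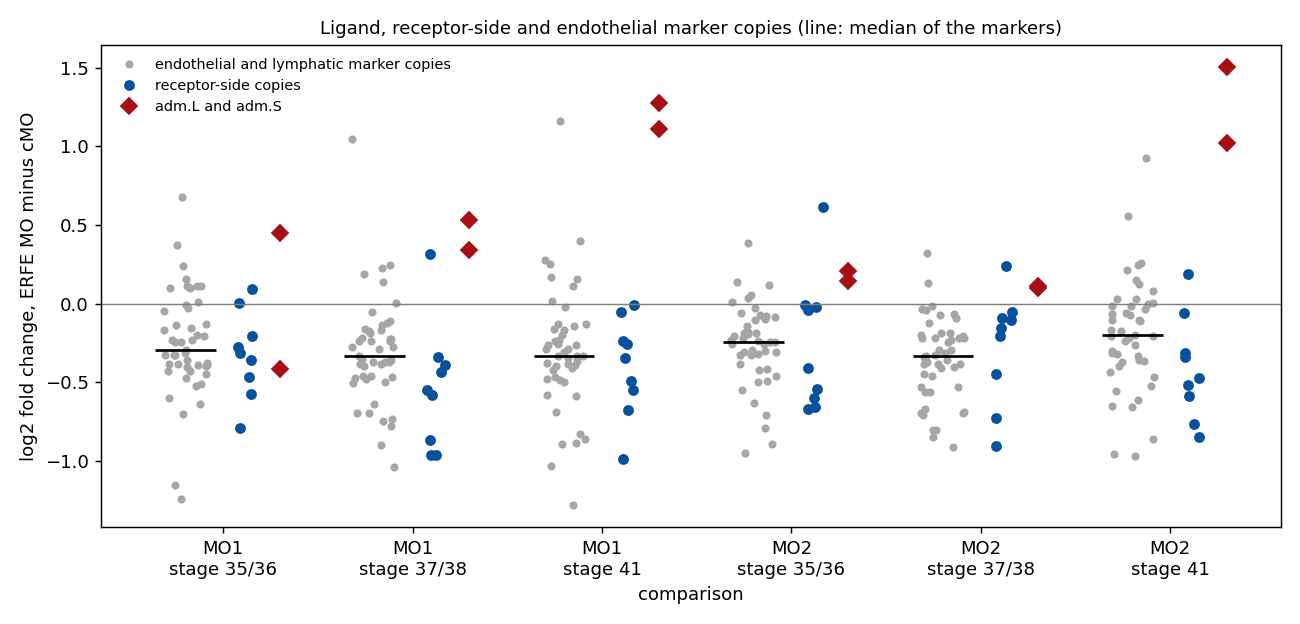
Log2 fold changes in the 6 ERFE comparisons of 47 endothelial and lymphatic marker copies (grey, line at their median), the 9 receptor-side copies (blue) and adm.L and adm.S (red). At stage 41 the red points lie above 1 in both morpholinos, while most grey and blue points lie below 0.

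Of 36 copies of hypoxia-response genes, 2 rose, both with MO1 at stage 41: ddit4.L, an inhibitor of mTOR signalling (0.69 ± 0.14, adjusted p = 0.00581), and aldoa.L, a glycolytic enzyme (0.50 ± 0.13, adjusted p = 0.0353), 5.56% of the list against 1.51% of all genes. None passed in the other 5 comparisons, in which 2 to 5 had an unadjusted p under 0.05, and the medians at stage 41 were 0.11 with MO1 and 0.02 with MO2. With the replicate block 4 were higher and 2 lower with MO1 at stage 41, which is 16.7% of the list and near the 13.4% of all genes, and at most 3 passed in another comparison. The same 2 copies passed without the library that stands apart, and the median with MO2 at stage 35/36 was 0.04. In the main edgeR fit, 23 of the 36 copies had positive values with MO1 at stage 41, and 15 with MO1 at stage 35/36. The summed CPM of the list at stage 41 was 1906 to 2121 with ERFE MO1 and 1725 to 1805 with 10 ng cMO. At stage 35/36 it was 2350 to 2400 against 2063 to 2228. In the other comparisons the ranges overlapped. The part of the hypoxia response in the adm values was not tested.

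Of 31 heart and smooth muscle copies, nppb.S, a natriuretic peptide of stressed heart muscle, rose with MO1 at each stage (3.42 ± 0.72, 3.29 ± 0.69 and 3.03 ± 0.67, adjusted p 0.0166, 0.0118 and 0.0123). With MO1 at stage 41, 4 copies of myosin heavy chains fell, among them myh11.S of smooth muscle (-2.84 ± 0.45, adjusted p = 0.000468) and myh6.S of heart (-1.57 ± 0.37, adjusted p = 0.0228). These 5 calls are 16.1% of the list against 1.51% of all genes. Under the block that comparison had 4 copies higher and 10 lower, 45.2% against 13.4% of all genes. With MO2 at stage 41 tnni3.S, cardiac troponin I, fell (-0.83 ± 0.20, adjusted p = 0.0453), 3.23% of the list against 0.412% of all genes. In that comparison 12 copies fell with the replicate block, 38.7% against 5.8% of all genes. At the earlier stages none passed with MO2, where 3 and 7 had an unadjusted p under 0.05. Without the library that stands apart myl7.S, a myosin light chain of the atria, was lower with MO2 at all 3 stages, and nppb.L was higher with MO1 at stages 37/38 and 41. Of 21 blood cell copies none passed in any of the 6 comparisons, their medians lay between -0.38 and -0.14, up to 4 had an unadjusted p under 0.05, and the block called at most 4, all lower (19.0% against 5.8% of all genes with MO2 at stage 41). Of 21 markers of tissues across the embryo (among them muscle, nerve, eye, liver, skin, cartilage, kidney), nphs1.S, a kidney glomus protein, rose with MO1 at stage 41 (0.89 ± 0.17, adjusted p = 0.00422), 4.76% of the list against 1.51% of all genes. This list also held hba1, a globin on the blood list, and tnnc1, a troponin, so it is not separate from blood and heart. Under the block krt5.7.S was also higher there (9.52% of the list against 13.4%) and tnnc1.L was lower with MO2 at stage 41 (4.76% against 5.8%). The other 5 comparisons had none without the block, with 1 to 3 at an unadjusted p under 0.05. On leaving out the library that stands apart, ttr.L was lower with MO2 at stage 35/36, where the list's median was 0.015, and the blood and heart medians were -0.16 and -0.09. Without the block the medians lay between -0.11 and 0.08.

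By likeness over the 15 group means, measured as Pearson's r among 20682 genes with a mean of at least 1 CPM, adm.L was nearest to rasl11b.L (a Ras-like protein, 0.981) and cyp51a1.L (a sterol-synthesis enzyme, 0.953). The nearest to adm.S were srebf2.S, a regulator of sterol synthesis, and hmgcs1.S, a sterol-synthesis enzyme (both 0.941). For gpr182.L the nearest were tie1.L (0.957), tie1.S (0.946) and idh2.L (0.944). For gpr182.S they were plg.S (0.925), nckap1l.L (0.924) and agbl1.S (0.923), with no tie1 copy among them. The nearest to ramp2.L was bap1.S (0.944) and to calcrl.L cap2.L (0.883). The 2 copies of adm had r = 0.897. The 15 means share stages and libraries, so these values describe the pattern over groups and carry no p. Over the 45 libraries r was lower for every gene named here as nearest, from 0.576 (gpr182.L with tie1.L) to 0.888 (adm.L with rasl11b.L).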

How the data were processed

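RNA of whole embryos was extracted with Trizol and made into libraries with the TruSeq RNA v2 kit, per the labels' protocols; this kit does not mark strand. The authors deposited raw read counts per gene, 1 file per library. The submitters' processing notes name bcl2fastq 2.17.1.14, FastQC 0.11.5, STAR 2.5.2a, featureCounts 1.5.0-p1 and DESeq2 1.8.2; neither build nor annotation is stated there, nor how reads mapping to several genes were treated. Symbols are those of the files, and 8 of the 11 match a RefSeq symbol.

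The counts were analysed here in R 4.3.3 with edgeR 4.0.16: filterByExpr by group (count minimum 10, leaving 31817 genes), TMM scaling and a quasi-likelihood fit with 1 term per group over 45 libraries (30 residual degrees of freedom). P-values are two-sided and adjusted by Benjamini-Hochberg over all genes kept; a gene passed at an adjusted p under 0.05. All 11 copies were kept, and 10 had at least 10 counts in every library. The SE is |log2 fold change| over the square root of F, and intervals are at 95%. The steps were also run on simulated counts. These were drawn independently, without the shared deviation of same-numbered libraries, so that run is no check on the SEs and calls here. Floors of 3 counts cover counting error only.

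Libraries were grouped by their labels. Same-numbered libraries deviated together: all 36 same-numbered pairs of compared groups had a correlation of deviations from the group means over 0.1 (minimum 0.122, median 0.569). Apart from the sequencing lane, the labels do not say what the number shares. Replicate 1 was on lanes 1 and 2, replicate 2 on lanes 2 to 4 and replicate 3 on lanes 4 and 5. Number and lane thus partly go together. The replicate number within each stage was used as a block, in an alternative fit only. The main edgeR fit, with its SEs, intervals and calls, leaves this pairing out. Alternatives were DESeq2 1.42.0, RLE scaling, no filter, a lane term, the replicate block, a fit per stage and leaving out each library. The members and lists were chosen with earlier results of these data known. Named are the 11 copies and, per list and ERFE comparison, at most 4 copies with the smallest p. Results for 1 list, and for 1 gene close to adm.L in pattern, are not reported here. No sequences are shown.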

Additional observations from a re-analysis of the deposited data

Results flagged for a closer look

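A single pattern was noted. The S copy of adrenomedullin, adm.S, was lower in all 3 ERFE MO1 libraries than in the 3 of 10 ng cMO at stage 35/36 (log2 fold change -0.41) and higher in all 3 at stage 41 (1.27). Of all genes, 6.25% lay lower without overlap in the first comparison and 6.44% higher in the second. The L copy was higher without overlap at stage 35/36 (0.45). The directions of adm.S at the 2 stages are opposite, and the difference between the stages was not tested.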

How the results depend on the processing

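Of 847 alternative values of the 11 copies in the ERFE comparisons, 846 lay within the replicate SD of the edgeR value. The exception was adm.S with MO2 at stage 35/36, -0.91 without the library that stands apart. Leaving out 1 of 3 libraries can hardly move a value by that SD, so for such fits this count says little about stability. The sign changed in 29 of the 847 values, over 14 pairs of a copy and a comparison whose edgeR values lay between -0.10 and 0.24. Among these, without that library, were adm.S, adm.L (-0.30) and calcrl.L (0.04) with MO2 at stage 35/36. At stage 41 they included ramp1.S and ramp3.S with MO1 and calcrl.L with MO2. The symbols were chosen by these comparisons, so counts of copies past the threshold are no test of them and are given only to show how they vary with the fit, for MO1 at stages 35/36, 37/38 and 41 and MO2 at the same stages. They were 0, 1, 3, 0, 0 and 2 in the edgeR fit, beside 0.39%, 0.6%, 1.51%, 0.0189%, 0.0974% and 0.412% of all genes. DESeq2 gave 0, 2, 5, 0, 1 and 3, and the lane term 0, 2, 5, 0, 2 and 3. The replicate block gave 1, 5, 5, 0, 2 and 3, beside 2.5%, 3.64%, 13.4%, 0.563%, 1.62% and 5.8% of all genes. The fit to a stage alone gave 0 in each, and the cause was not tested. Shares of all genes are not given for DESeq2, the lane term or that fit, so a general change in calls cannot be told apart there. RLE scaling left the counts as they were, and without the filter MO1 at stage 41 gave 2. Leaving out a library gave 0 to 0, 0 to 1, 0 to 4, 0 to 0, 0 to 0 and 0 to 3 copies. Over all genes the same fits called 34 to 182, 61 to 258, 108 to 530, 1 to 20, 6 to 46 and 13 to 200. Leaving out a library gave 0 to 0 copies in each comparison of cMO with uninjected embryos, where no alternative called a copy. With 2 libraries left in a group its spread is taken from the others.

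In development, leaving out a library gave 0 to 0 copies (stage 37/38 against 35/36), 1 to 2 (41 against 37/38) and 3 to 4 (41 against 35/36). Over all genes the same fits called 0 to 183, 5358 to 10233 and 10721 to 13880. The edgeR counts were 0, 2 and 3, beside 0.0723%, 30.1% and 43.1% of all genes. The replicate block gave 1, 2 and 4, beside 5.44%, 47.7% and 57.7% of all genes, and the lane term gave 1, 2 and 4. Set within stages, the block leaves the shared deviations of libraries out of the error between stages. Beyond the calls named in the report the block changed no other call, and the lane term added gpr182.L for stage 41 against 35/36 (0.52, adjusted p = 0.0492). The share of all genes is not given for the lane term, so a general change in calls cannot be told apart there. Of 429 alternative values 8 changed sign, all of them near 0 and on leaving out a library. These ranged from -0.00672 to 0.146 for calcrl.L, -0.35 to 0.10 for ramp2.L, -0.42 to 0.21 for ramp3.S and -0.0865 to 0.263 for gpr182.L between stages 35/36 and 37/38, and from -0.33 to 0.13 for ramp2.L between stages 37/38 and 41. Low depth limits ramp2.S and ramp3.S most, whose lowest counts were 9 and 13, followed by ramp2.L and adm.S with 23 each.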
